A study of Mus musculus with 7 samples.

Results

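The 10 genes described here encode tetraspanins of T cells and vesicles. They were taken by symbol from the 55367 genes of the count table: Cd9, Cd37, Cd53, Cd63, Cd81, Cd82, Cd151, Tspan13, Tspan31 and Tspan32. All 10 passed the minimum of 5 counts per library on average and were among the 12623 genes tested. CD8+ T cells were sorted from spleens of Foxp3 YFP/cre mice, a reporter strain that both groups share, and were treated for 48 h with small extracellular vesicles (sEVs). LME-sEVs, from the leukemia microenvironment, were purified from spleens of leukemic Eμ-TCL1 mice, in which an enhancer active in B cells drives human TCL1. HCME-sEVs came from spleens of healthy mice. The sample labels gave 100 µg/mL of sEVs for each culture, whereas the methods described the amounts found in each kind of spleen, so the dose may differ between the groups. Cultures had wells coated with anti-CD3, IL2 and CD28 antibody by the methods for CD8+ T cells. There were 4 HCME-sEV and 3 LME-sEV libraries, and the study's text gives these group sizes the other way round. No source says whether the libraries came from separate mice or whether mice were pooled, and p-values then measure the spread between these libraries, which may be technical.

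Tetraspanins are small proteins that cross the membrane repeatedly and bind partners beside them, such as integrins, coreceptors and proteases, in membrane microdomains. CD9, CD63 and CD81 are commonly used as marker proteins of sEVs, because tetraspanins are sorted onto vesicles at the cell surface or in multivesicular bodies. In T cells, tetraspanins sit near the immune synapse and tune adhesion, costimulation and proliferation.

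The comparison asks whether the messenger RNA of these proteins differed in T cells given leukemic vesicles. The level of 3 tetraspanins was higher with LME-sEVs at a false discovery rate (FDR) under 0.05: Cd9 by 1.51-fold, Tspan13 by 1.42-fold and Tspan32 by 1.48-fold. Cd82 was lower, at 0.732 of its level with HCME-sEVs. The other 6 did not pass, and none of the 10 had a log2 fold change beyond 1. Over all 12623 genes tested, 3.75% were called higher and 5.21% lower. Of the 10, Tspan13 kept its call with any 1 library left out, and Cd9 lost it without LME-sEV library 3. Tspan32 and Cd82 lost theirs without any 1 of several libraries.

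The stretches of DNA before the starts of the 4 genes that passed are shown because their messenger RNA moved together or, for Cd82, the other way. Each is the 100 bases before the first start listed by RefSeq (GRCm38.p6), written 5′ to 3′ on the strand of the gene, and capitals mark GC boxes (GGGCGG, searched on both strands). Cd9 is at chr6:125494761-125494860 (minus strand), Tspan13 at chr12:36042479-36042578 (minus), Tspan32 at chr7:143004946-143005045 (plus) and Cd82 at chr2:93462951-93463050 (minus).
Cd9: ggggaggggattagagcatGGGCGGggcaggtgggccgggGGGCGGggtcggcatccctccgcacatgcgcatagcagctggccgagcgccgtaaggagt
Tspan13: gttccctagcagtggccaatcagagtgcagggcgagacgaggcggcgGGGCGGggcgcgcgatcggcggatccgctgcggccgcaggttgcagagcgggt
Tspan32: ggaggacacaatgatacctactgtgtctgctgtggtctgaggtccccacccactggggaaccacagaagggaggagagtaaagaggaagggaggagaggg
Cd82: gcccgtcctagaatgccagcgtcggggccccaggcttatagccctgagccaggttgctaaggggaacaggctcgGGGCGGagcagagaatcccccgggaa

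In the windows of 300 bases from which these were taken (250 before and 50 after the start), Cd9 and Cd82 held 2 GC boxes each, Tspan13 held 1 and Tspan32 held 0. A GC box was present in 35.9% of 32544 promoter windows of this length. GC content was 61.3% for Cd9, 67.3% for Tspan13, 56.7% for Tspan32 and 60.7% for Cd82, against a median of 53% over all windows. The E-box CACGTG, found in 7.17% of windows, and the STAT motif TTCNNNGAA, found in 8.33%, matched in none of the 4 windows. RefSeq lists 3 further starts for Cd82, and the window of 1 of them held a STAT match. No overlap between motifs occurred there. A match is only a description of these letters.

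Besides these genes, microRNAs carried by the vesicles are of interest, because sEVs can bring them into T cells, and seed matches of 5 that were measured in the vesicles are shown. Of the others measured, miR-150 and miR-378a were not used here, so seed matches to them were not searched. By the paper, levels of both and of miR-155 were raised in CD8+ T cells given LME-sEVs. Mature sequences are from RefSeq, with the seed (bases 2 to 8) in capitals and the place of the mature sequence in GRCm38.p6 after its name. None of the 5 shares its seed with another.
mmu-miR-210-3p (chr7:141221407-141221428, minus): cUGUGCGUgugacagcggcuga
mmu-miR-27a-3p (chr8:84208727-84208747, plus): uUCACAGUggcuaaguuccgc
mmu-miR-155-5p (chr16:84714143-84714165, plus): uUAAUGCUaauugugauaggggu
mmu-miR-146a-5p (chr11:43374435-43374456, minus): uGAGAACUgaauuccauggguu
mmu-miR-21a-5p (chr11:86584120-86584141, minus): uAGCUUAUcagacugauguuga

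In the longest annotated 3′ untranslated region of each gene (GENCODE vM21), 3 of the 10 tetraspanins held a match to 1 of these seeds, with the matching bases in capitals.
Cd37 to miR-210-3p: tcaacgctgccaatcACGCACAga
Tspan32 to miR-27a-3p: cttgggagatgctggACTGTGAca
Cd151 to miR-155-5p: cagcgtacttgccccAGCATTAag

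Over 10794 genes with such a region, 3.64% held the miR-210-3p match, 17.8% the miR-27a-3p match and 9.59% the miR-155-5p match. The miR-146a-5p match was held by 12.9% of genes and the miR-21a-5p match by 8.17%, and by none of the 10 tetraspanins. Whether any microRNA bears on the levels was not tested.

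Libraries held between 3689831 and 5030522 counts. A count is 1 captured molecule read at its 3′ end and marked by a molecular identifier, so gene length does not enter a level, and levels of different genes are compared on the scale of CPM (counts scaled to library size) after TMM normalization. The smallest level taken as detected, 3 counts, was between 0.582 and 0.807 CPM, which covers counting error only. Counts of libraries of the same group differed by more than sampling noise, by a factor of 2.1 to 6.0 in chi-square over its degrees of freedom, and the highest values all involved HCME-sEV library 1. The cells carried the markers of their label: Cd8a lay between 341 and 435 CPM, whereas Cd4 reached at most 0.582 CPM and Foxp3 at most 0.267 CPM. The 10 CD8 T-cell markers summed to between 2917 and 2998 CPM with HCME-sEVs and between 3051 and 3378 CPM with LME-sEVs. At an FDR under 0.05, 2 of the 10, Cd3e and Cd3g, were higher with LME-sEVs, against 3.75% of all genes tested. As these are bulk libraries, fewer cells of a type and less RNA per cell cannot be told apart.

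Cd53, a tetraspanin of all leukocytes that stabilizes CD45 on T cells, was the most abundant member, with between 47.1% and 56.0% of the counts of the 10 genes in a library. Its level lay between 340 and 497 CPM. Tspan13 followed in 7 of 7 libraries, with between 135 and 234 CPM and between 17.6% and 24.6% of the counts. Cd9, Cd82 and Cd37 came next, in an order that differed between the groups. Cd82 was above Cd37 in all 4 HCME-sEV libraries and below it in all 3 LME-sEV libraries. Cd82 was above Cd9 in 3 of 4 HCME-sEV libraries and below it in all 3 LME-sEV libraries. This change of order was not tested by itself. All 7 libraries had Cd37 above Tspan31. Tspan31 was above Cd81 in 5 of 7 libraries, Cd81 above Tspan32 in 5 of 7 and Tspan32 above Cd63 in 6 of 7, so these neighbors also overlapped. Cd151 was the lowest in 7 of 7 libraries, at 3.77 to 7.19 CPM and with at most 32 counts. The order within a library thus put the leukocyte tetraspanin Cd53 far above the vesicle markers Cd9, Cd81 and Cd63.

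**Figure D1:**
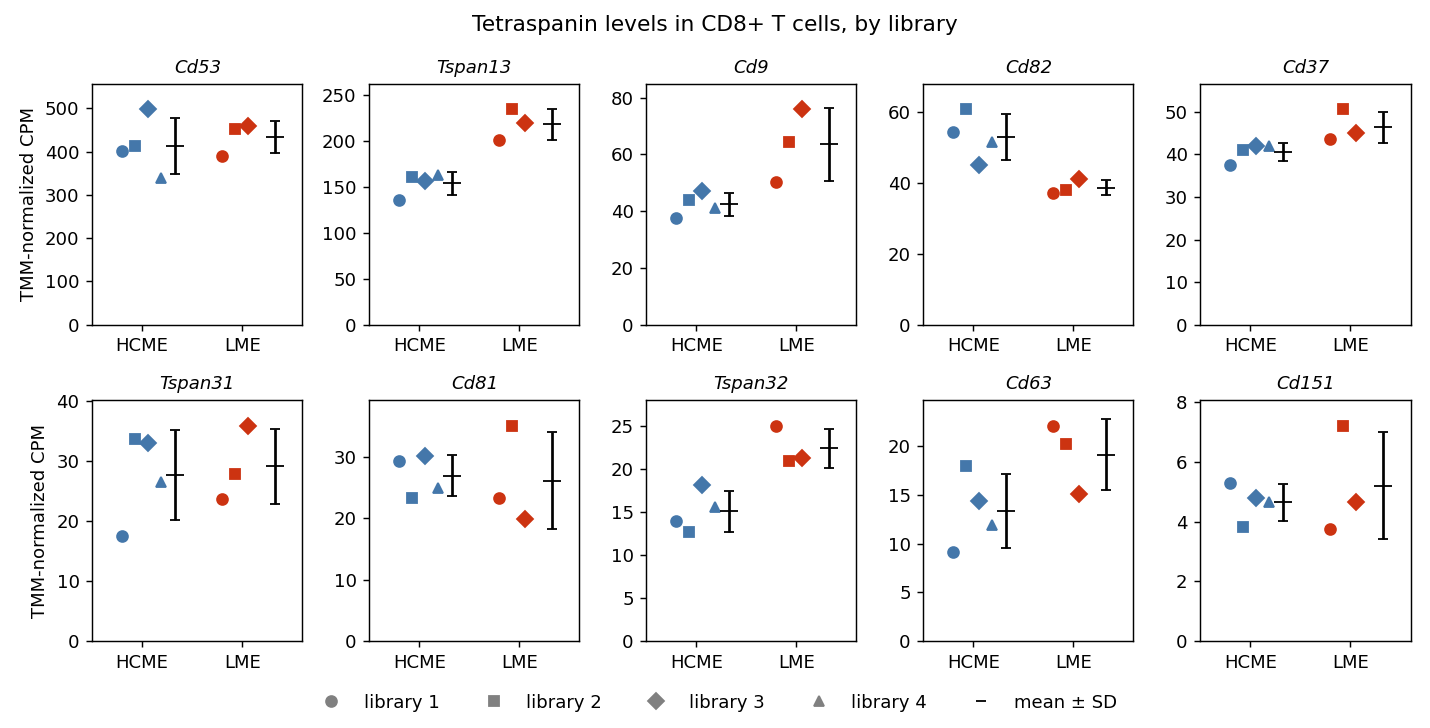
TMM-normalized CPM (y axis, from 0, a scale for each gene) of the 10 tetraspanins in 4 HCME-sEV libraries (blue) and 3 LME-sEV libraries (red); marker shapes give the library number and black bars the mean ± SD. The 3 red points lie above all 4 blue points for Tspan13, Cd9, Tspan32 and Cd37, and below them for Cd82.

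Of the 3 tetraspanins used as vesicle markers, Cd9 differed between the groups. CD9 is a tetraspanin of many cells, abundant on platelets, and can costimulate T cells. In HCME-sEV libraries 1 to 4 it was measured at 37.6, 43.8, 46.9 and 41.2 CPM, and in LME-sEV libraries 1 to 3 at 50.3, 64.5 and 75.8 CPM. Every LME-sEV library lay above every HCME-sEV library, with LME-sEV library 1 close to HCME-sEV library 3. The means were 42.4 ± 3.97 CPM (SD, n = 4) and 63.5 ± 12.8 CPM (SD, n = 3). The log2 fold change of Cd9 was 0.60 (standard error 0.12, 95% interval 0.34 to 0.85, FDR = 0.00454, quasi-likelihood test of edgeR, adjusted by Benjamini and Hochberg over 12623 genes). The exact two-sided permutation test on log2 CPM gave p = 0.0286 for Cd9, the smallest that 35 assignments of the 7 libraries allow, before any correction. Without LME-sEV library 3, where Cd9 was highest, the log2 fold change was 0.45 and the FDR 0.0615 by the same edgeR test. The gene lies on chromosome 6 of GRCm38 from 125460266 to 125494791 (GENCODE vM21, as for all positions here), and 218 bases of its exons overlap Gm26728 on the other strand, which had a mean of 1.29 counts.

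Cd63, which encodes a protein of late endosomes and lysosomes and a marker of multivesicular bodies, was measured at 9.16, 18.0, 14.4 and 11.9 CPM with HCME-sEVs. With LME-sEVs it was measured at 22.1, 20.2 and 15.1 CPM. The groups overlapped, since HCME-sEV library 2 was above LME-sEV library 3. The log2 fold change of Cd63 was 0.51, with a 95% interval from 0.10 to 0.91, which fell short of the threshold (FDR = 0.112, edgeR test as above; exact permutation p = 0.114). It passed without HCME-sEV library 2 (FDR = 0.0460) and with no minimum on counts (FDR = 0.0499, both by the edgeR test), so its call depended on these choices. Cd63 lies on chromosome 10 from 128900989 to 128912822. It shares a near-identical 3′ end with its pseudogene Cd63-ps, which held at most 3 counts in a library, and its assignment of reads is uncertain to that extent.

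Cd81 encodes a costimulator of T cells. It was measured at 29.4, 23.3, 30.1 and 24.9 CPM with HCME-sEVs and at 23.4, 35.1 and 19.97 CPM with LME-sEVs. The LME-sEV libraries spanned the whole range of the others. Its log2 fold change of -0.05 had a 95% interval from -0.39 to 0.30 (FDR = 0.910, edgeR test as above), and its sign turned without HCME-sEV library 3, LME-sEV library 1 or LME-sEV library 3. Cd81 lies on chromosome 7 from 143052739 to 143067934, where R74862 overlaps 104 of its exon bases on the other strand with a mean of 1.14 counts. The 3 vesicle markers thus gave 1 call, 1 value short of the threshold and 1 value near 0, and whether they differ from each other was not tested.

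Tspan13, a tetraspanin whose role in T cells is little described, had the smallest FDR of the 10. It was measured at 135, 161, 156 and 163 CPM with HCME-sEVs, and at 200, 234 and 219 CPM with LME-sEVs. The gap between the groups, from 163 to 200 CPM, was wider than the range within either group. The means were 154 ± 12.8 CPM (SD, n = 4) and 218 ± 16.9 CPM (SD, n = 3). Tspan13 had a log2 fold change of 0.50 (standard error 0.08, 95% interval 0.33 to 0.68, FDR = 0.00106, same edgeR test; exact permutation p = 0.0286). With each library left out in turn it lay between 0.45 and 0.56 and stayed under an FDR of 0.05 in 7 of 7 fits. It lies on chromosome 12 from 36014557 to 36042500.

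Tspan32, also called TSSC6, is made in blood cells, and T cells of mice that lack it proliferate more. It was measured at 14.0, 12.7, 18.1 and 15.6 CPM with HCME-sEVs and at 25.0, 20.9 and 21.3 CPM with LME-sEVs. The groups did not overlap. The means were 15.1 ± 2.36 CPM (SD, n = 4) and 22.4 ± 2.27 CPM (SD, n = 3), from 50 to 110 counts per library. The log2 fold change of Tspan32 was 0.57 (standard error 0.15, 95% interval 0.25 to 0.88, FDR = 0.0223, same edgeR test; exact permutation p = 0.0571). The FDR rose to 0.0791 without HCME-sEV library 2, and to 0.0901, 0.0616 and 0.0634 without LME-sEV libraries 1, 2 and 3 in the same edgeR test, whereas the log2 fold change stayed between 0.49 and 0.66. It lies on chromosome 7 from 143005046 to 143019644, and the antisense gene that overlaps 271 of its exon bases had a mean of 0.143 counts.

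Cd82, also called KAI1, was the member that fell. The protein is known as a suppressor of metastasis, and in T cells it associates with the coreceptors CD4 and CD8. It was measured at 54.4, 60.8, 45.1 and 51.7 CPM with HCME-sEVs and at 37.1, 38.0 and 41.1 CPM with LME-sEVs. The groups did not overlap, with HCME-sEV library 3 nearest to the LME-sEV libraries. The means were 53.0 ± 6.52 CPM (SD, n = 4) and 38.7 ± 2.09 CPM (SD, n = 3). The log2 fold change of Cd82 was -0.45 (standard error 0.11, 95% interval -0.68 to -0.22, FDR = 0.0144, same edgeR test; exact permutation p = 0.0571). Without HCME-sEV library 2 the FDR was 0.0622, and without LME-sEV library 1 or 2 it was 0.0594 or 0.0805 in the same edgeR test. It lies on chromosome 2 from 93419111 to 93463140.

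Cd37, restricted to leukocytes and known to restrain T-cell proliferation, was measured at 37.6, 41.1, 41.9 and 41.9 CPM with HCME-sEVs and at 43.6, 50.6 and 45.0 CPM with LME-sEVs. The groups did not overlap, but lay close. Cd37 had a log2 fold change of 0.19, with a 95% interval from -0.02 to 0.41 (FDR = 0.277, edgeR test as above), whereas the exact permutation test gave its smallest p, 0.0286, before any correction. Cd37 lies on chromosome 7 from 45233632 to 45239115. Cd53 had 401, 413, 497 and 340 CPM with HCME-sEVs and 391, 453 and 458 CPM with LME-sEVs. The groups overlapped, and the log2 fold change of 0.07 had a 95% interval from -0.13 to 0.28 (FDR = 0.721, edgeR test as above). Cd53 lies on chromosome 3 from 106759921 to 106790149.

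Cd151, the tetraspanin of laminin-binding integrins, had 5.3, 3.8, 4.8 and 4.66 CPM with HCME-sEVs and 3.77, 7.19 and 4.65 CPM with LME-sEVs. The groups overlapped, and at 14 to 32 counts per library the 95% interval of its log2 fold change of 0.17 ran from -0.42 to 0.77 (FDR = 0.782, edgeR test as above). Cd151 lies on chromosome 7 from 141467392 to 141471473, and shares 193 exon bases with Gm10575 on the other strand, which had a mean of 18.4 counts. Tspan31, first found in a region amplified in sarcomas, had 17.6, 33.7, 33.1 and 26.5 CPM with HCME-sEVs and 23.7, 27.9 and 35.9 CPM with LME-sEVs. HCME-sEV library 1 was the lowest. Tspan31 had a log2 fold change of 0.09, with a 95% interval from -0.28 to 0.47 (FDR = 0.816, edgeR test as above), and turned negative without HCME-sEV library 1 or LME-sEV library 3. The gene lies on chromosome 10 from 127067280 to 127070264. Its exons share 641 bases with Cdk4 on the other strand, which had a mean of 511 counts, and with no statement on the use of strand the reads of the pair cannot be told apart. Cdk4 itself had a log2 fold change of -0.02 (FDR = 0.916, edgeR test as above).

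Over the 10 tetraspanins, 3 were higher and 1 was lower with LME-sEVs at an FDR under 0.05. Among all 12623 genes tested, 8.96% passed in either direction, 3.75% higher and 5.21% lower. The methods define a differentially expressed gene by a log2 fold change beyond 1 together with an FDR under 0.05. This definition was met by 0 of the 10 and by 1.28% of all genes, and DESeq2 and limma-voom also gave 0 of the 10. An unadjusted p under 0.05 in the edgeR test was found for 5 of the 10, against 2864 of the 12623 genes tested. All LME-sEV libraries lay above all HCME-sEV libraries for 4 of the 10, against 9.49% of all genes, and below them for 1 of the 10, against 10.8%. Log2 fold changes were positive for 8 of the 10, with a median of 0.18, and the median over all genes tested was 0.01. The 10 genes were too few to read these shares as more than a description. Without LME-sEV library 1, 2 or 3 the calls among the 10 numbered 2 each, and without HCME-sEV library 2 they numbered 3.

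**Figure D2:**
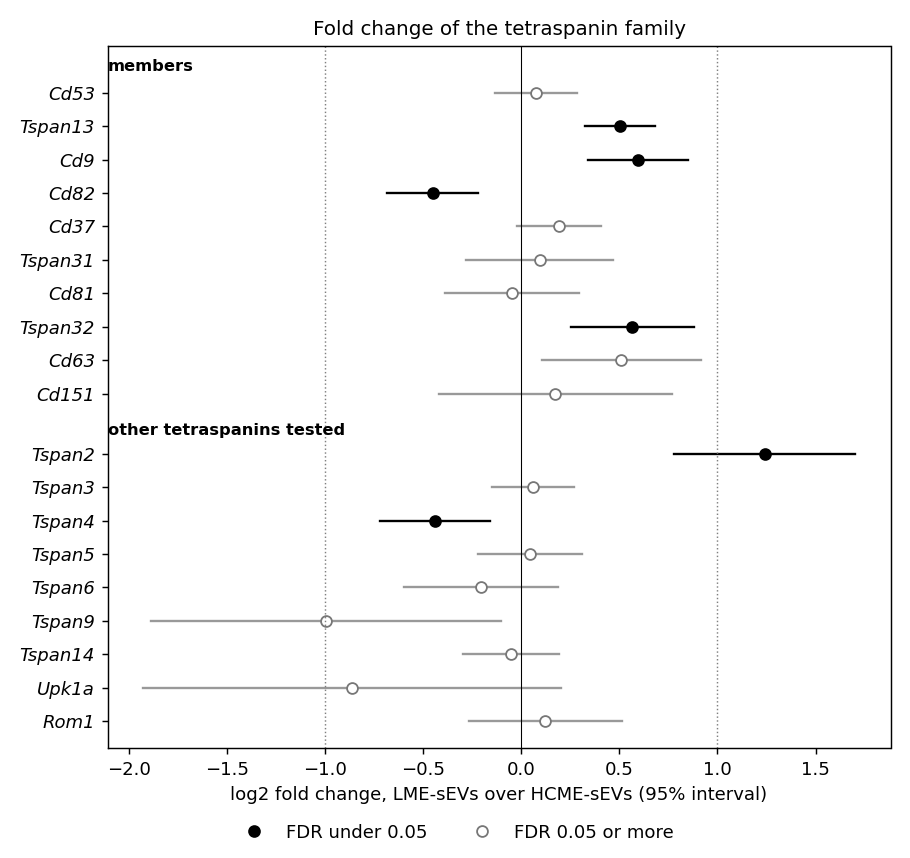
Log2 fold change, LME-sEVs over HCME-sEVs (x axis), with its 95% interval from edgeR's quasi-likelihood fit, for the 10 members and the 9 other tetraspanins tested (y axis); filled points had an FDR under 0.05 and dotted lines mark -1 and 1. Filled points are Tspan13, Cd9, Tspan32 and Cd82 among the members and Tspan2 and Tspan4 among the others, and Tspan2 alone lies beyond 1.

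**Figure D3:**
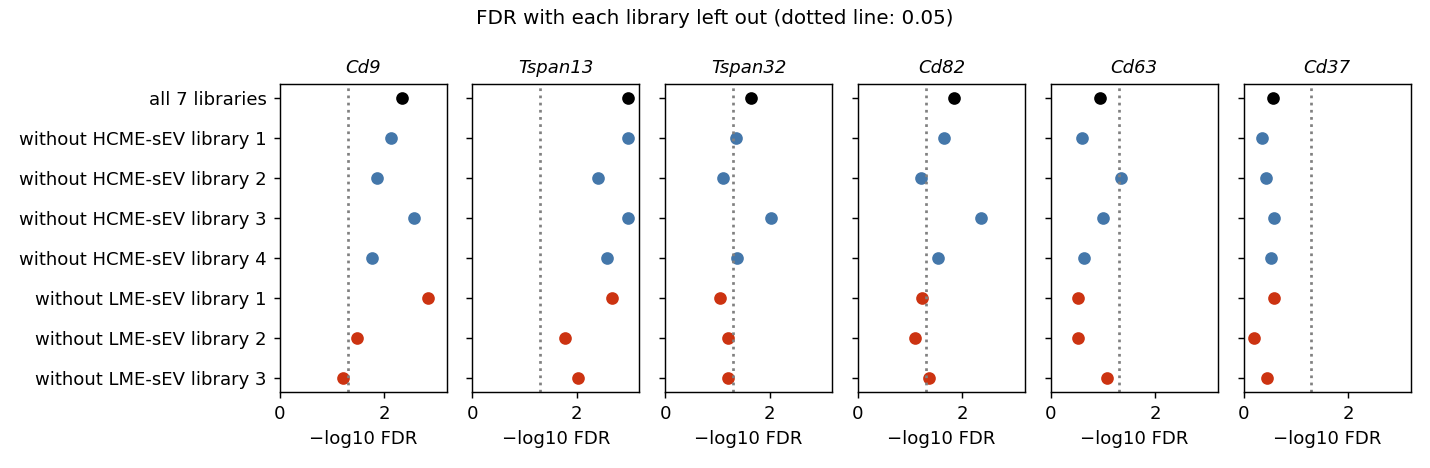
The −log10 of the FDR (x axis) of 6 tetraspanins with all 7 libraries (black) and without each HCME-sEV (blue) or LME-sEV (red) library in turn (y axis); the dotted line is an FDR of 0.05. Tspan13 stays right of the line throughout, Cd9 crosses it without LME-sEV library 3, Tspan32 crosses it in 4 of 7 fits and Cd82 in 3 of 7, and Cd63 passes it without HCME-sEV library 2.

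Of 21 other tetraspanins, 18 had at least 1 count and 9 were tested. Of the 9, 1 was higher and 1 lower, against 3.75% and 5.21% of all genes tested. Their median log2 fold change was -0.05. Tspan2, known from myelin-forming cells, was higher by 2.36-fold. It was measured at 5.54, 6.08, 4.0 and 6.52 CPM with HCME-sEVs and at 12.6, 10.3 and 16.3 CPM with LME-sEVs, with no overlap. Tspan2 had a log2 fold change of 1.24 (FDR = 0.00156 and standard error 0.22 in the edgeR test; exact permutation p = 0.0286), and 7 of 7 fits with a library left out kept an FDR under 0.05. It was the only tetraspanin of the 19 tested to meet the definition of a differentially expressed gene in the fit to all libraries, on 15 to 84 counts per library. Tspan2 lies on chromosome 3 from 102734529 to 102801513.

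Tspan4, a component of migrasomes, had 37.3, 27.6, 27.5 and 29.1 CPM with HCME-sEVs and 21.8, 23.4 and 22.1 CPM with LME-sEVs. HCME-sEV library 1 stood above the other libraries, and the groups did not overlap. The log2 fold change of Tspan4 was -0.44 (standard error 0.13, FDR = 0.0450, same edgeR test; exact permutation p = 0.0286). Without HCME-sEV library 1 it was -0.32, with an FDR of 0.142 in the edgeR test, and 1 of 7 fits with a library left out kept the call. A Tspan4 transcript shares a near-identical 3′ end and 292 exon bases with Chid1 on the other strand, so its counts are uncertain.

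The other 7 tested were not called: Tspan3 (log2 fold change 0.06), Tspan5 (0.05), Tspan6 (-0.21), Tspan9 (-0.996), Tspan14 (-0.05), Upk1a (-0.86) and Rom1 (0.12). Tspan14 and Tspan5, which escort the protease ADAM10 to the surface, were measured at 62.3 to 92.9 and 21.6 to 26.6 CPM. Tspan9, a tetraspanin of platelets, lay between 1.08 and 4.89 CPM on at most 21 counts, and its FDR was 0.164 in the edgeR test. Tspan8, Tspan10 and Prph2 were at 0 in all 7 libraries.

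Tetraspanins act through the proteins beside them. Of 24 such partners 22 were tested, and 2 rose and 3 fell with LME-sEVs, against 3.75% and 5.21% of all genes tested. Their median log2 fold change was 0.06. The 3 that fell were the interferon-induced membrane proteins that restrict virus entry. Ifitm1 had 46.7, 38.5, 23.5 and 38.6 CPM with HCME-sEVs and 22.1, 13.0 and 23.1 CPM with LME-sEVs, a log2 fold change of -0.93 (FDR = 0.00567, edgeR test as above). Ifitm2 (log2 fold change -0.62, FDR = 0.0160) and Ifitm3 (-0.73, FDR = 0.00344, both by the edgeR test) fell as well. With a library left out, Ifitm1 lost its call without LME-sEV library 2 (FDR = 0.0617) and Ifitm2 without any 1 of the 3 LME-sEV libraries (FDR up to 0.0634, both by the edgeR test). Ifitm3 and Itga4 kept their calls in 7 of 7 such fits. In each of the 3 genes the LME-sEV libraries were all below the HCME-sEV libraries.

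The 2 partners that rose were integrin chains. Itga4, the α4 chain by which T cells bind VCAM-1 and fibronectin, had 60.2, 66.4, 75.2 and 69.6 CPM with HCME-sEVs and 98.2, 98.0 and 90.2 CPM with LME-sEVs, with a log2 fold change of 0.49 (FDR = 0.00240, edgeR test as above). Itgb2, the β2 chain of LFA-1, had a log2 fold change of 0.29 (FDR = 0.0369, edgeR test as above), and its groups overlapped. The call of Itgb2 was lost in 5 of 7 fits that left out a library, all but those without HCME-sEV library 3 or LME-sEV library 1, with an FDR of up to 0.179 in the edgeR test. Other partners were not called: Itgb1, which pairs in the integrins of Cd151, had a log2 fold change of 0.04, Igsf8, which binds CD9 and CD81, 0.02, and Adam10, cleaving surface proteins under the control of Tspan5 and Tspan14, -0.03. Cd8a, with which Cd82 associates, was at 0.20 (FDR = 0.0891, edgeR test as above). Cd4 was too low to be tested.

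The machinery that loads tetraspanins onto vesicles and releases them was measured with 42 genes, of which 39 were tested. Of the 39, 2 were higher, against 3.75% of all genes tested. Vps37b, a subunit of the ESCRT-I complex, was higher with LME-sEVs, with a log2 fold change of 0.38 (FDR = 0.0268, edgeR test as above). It had 120, 132, 164 and 130 CPM with HCME-sEVs and 168, 207 and 158 CPM with LME-sEVs, and the groups overlapped. Pdcd6ip, which encodes ALIX, had 141, 194, 187 and 177 CPM with HCME-sEVs and 206, 215 and 225 CPM with LME-sEVs, without overlap and with a log2 fold change of 0.30 at the edge of the threshold (FDR = 0.0497, edgeR test as above). An unadjusted p under 0.05 in the edgeR test, in either direction, was found for 6 of the 39, against 2864 of the 12623 genes tested. No gene of this list was called lower in the edgeR test, whereas DESeq2 called 2 lower, Arf6 and Chmp4b, and limma-voom called 1, Arf6. In the edgeR test Arf6, a small GTPase of vesicle release, had a log2 fold change of -0.27 (FDR = 0.0547) and Chmp4b, of ESCRT-III, had -0.22 (FDR = 0.0594, by the same edgeR test). The median over the 39 was -0.00268. Neither Rab27a, needed for vesicle release, at 0.05, nor the syntenin gene Sdcbp at -0.06, nor Tsg101 at -0.02 passed the test. Without HCME-sEV library 4 or LME-sEV library 2 the list held 0 calls in the edgeR test, and without HCME-sEV library 2 or LME-sEV library 1 it held 1.

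Some markers of other blood cells that also make tetraspanins moved between the groups. Of the 75 markers in 7 lists, 44 were tested and 12 called. These totals include the 10 CD8 T-cell markers, all tested, with 2 called. Over all genes tested, for comparison with each list below, 8.96% were called, 3.75% higher and 5.21% lower. The 13 erythroid and platelet markers summed to between 135 and 248 CPM with HCME-sEVs and between 220 and 282 CPM with LME-sEVs. Of the 9 tested, 3 were called higher: Pf4, Ppbp and Hba-a1. Log2 fold changes were positive for 8 of the 9. The abundant hemoglobin gene Hbb-bs was at -0.01 and was not called (FDR = 0.981, edgeR test as above). This list held 0 calls with DESeq2 and without HCME-sEV library 2, HCME-sEV library 4 or LME-sEV library 2, 1 call without LME-sEV library 1 or 3, and 4 without HCME-sEV library 3. Pf4, the platelet chemokine, was measured at 30.4, 59.6, 108 and 46.1 CPM with HCME-sEVs and at 108, 118 and 92.7 CPM with LME-sEVs. HCME-sEV library 3 was thus at the level of the LME-sEV libraries for Pf4, whereas its Cd9 level of 46.9 CPM was below all 3 of them. LME-sEV library 3 had the lowest Pf4 level of its group and the highest Cd9 level, 75.8 CPM. Within the HCME-sEV group, Pf4 and Cd9 rose in the same order, from library 1 over 4 and 2 to 3. The part of platelet RNA in the Cd9 result was not tested.

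The 11 basophil, mast-cell and eosinophil markers summed to between 20.2 and 49.4 CPM with HCME-sEVs and between 51.8 and 75.1 CPM with LME-sEVs. Of the 9 tested, 4 were called higher: Mcpt8, Prss34, Prg2 and Kit. Log2 fold changes were positive for 8 of the 9. The abundant Cpa3 went the other way, at -0.26, and was not called (FDR = 0.721, edgeR test as above). This list held 1 call with DESeq2, which gave no FDR for Prg2, and 1 call without LME-sEV library 2. Prg2 had 0, 2, 2 and 2 counts with HCME-sEVs and 18, 41 and 21 counts with LME-sEVs. Its log2 fold change was 3.92 (FDR = 0.000165, edgeR test as above), and 7 of 7 fits with a library left out kept the call. Prg2 passed the minimum on counts only through the LME-sEV libraries. The FDR and these fits therefore add no support beyond the counts themselves. Mcpt8, a basophil protease, had 0.723, 8.87, 6.4 and 2.1 CPM with HCME-sEVs and 13.5, 16.0 and 6.98 CPM with LME-sEVs, and its groups overlapped. HCME-sEV library 1 was the lowest for Mcpt8 and Pf4 and also for Cd63, 9.16 CPM, and Tspan31, 17.6 CPM. LME-sEV library 3 had the lowest Mcpt8 and Cd63 levels of its group. CD63 is a marker of activated basophils, and the part of these cells in the Cd63 values was not tested. The labels describe a sort by FACS and the methods a negative selection of CD8+ T cells. How many cells of other types remained was not measured here. The eosinophil marker Epx was at 0 in the HCME-sEV libraries and at most 0.388 CPM in the others.

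The 16 B-cell markers summed to between 55.2 and 59.0 CPM with HCME-sEVs and between 68.6 and 79.3 CPM with LME-sEVs. Of the 9 tested, Cd74, of MHC class II presentation, was higher (FDR = 0.03999, edgeR test as above). It was not called by DESeq2 (FDR = 0.0900), by limma-voom (FDR = 0.0514), with the replicate number as a block (FDR = 0.0606 by the edgeR test) or in 5 of 7 fits that left out a library, all but those without HCME-sEV library 3 or LME-sEV library 1, with an FDR of up to 0.286. Log2 fold changes were positive for 8 of the 9. Cd79a reached at most 0.482 CPM and was at 0 in 6 of 7 libraries, whereas other markers of the list were detected. Cr2 lay between 7.10 and 14.5 CPM and Cd79b between 1.87 and 5.58 CPM, and for both the groups overlapped. Bank1 and H2-Eb1 lay higher in every LME-sEV library than in any HCME-sEV library, but were not called (FDR = 0.192 and 0.110, edgeR test as above). Myeloid and dendritic-cell markers summed to between 154 and 195 CPM with HCME-sEVs and between 121 and 136 CPM with LME-sEVs, nearly all of it Ccr2, which T cells also express and which was lower. Of the 14, 3 were tested, and Lyz2 reached at most 1.2 CPM. Itgam, Itgax and Cd68 lay higher in every LME-sEV library than in any HCME-sEV library, at low counts. Itgam, an integrin chain of myeloid and other innate cells, had 0, 0, 0 and 1 counts with HCME-sEVs and 6, 8 and 6 counts with LME-sEVs. It was too low for the minimum used here, and was called higher with no minimum (FDR = 0.00221, by the edgeR test). Itgam reached 5 counts in 3 libraries only through the LME-sEV group. Its call with that filter therefore adds no support. Itgax lay between 0.899 and 2.13 CPM with LME-sEVs and reached at most 0.723 CPM with HCME-sEVs. Cd68, which was tested and not called, lay between 2.42 and 4.27 CPM with LME-sEVs and reached at most 2.17 CPM with HCME-sEVs. The 7 NK-cell markers, which activated CD8+ T cells share in part, summed to between 517 and 561 CPM with HCME-sEVs and between 482 and 561 CPM with LME-sEVs. Of the 3 tested, 0 were called by edgeR, DESeq2 or limma-voom. An unadjusted p under 0.05 in the edgeR test was found for 1 of the 3, against 2864 of the 12623 genes tested. The 4 CD4 and regulatory T-cell markers summed to between 6.26 and 14.4 CPM with HCME-sEVs and between 15.3 and 17.3 CPM with LME-sEVs. Most of each sum was Zbtb7b, the 1 tested, which was higher (FDR = 0.0241, edgeR test as above). Its call was kept in 2 of 7 fits that left out a library, with an FDR of up to 0.114 in the edgeR test. Cd40lg overlapped, at 0.723 to 1.33 CPM with HCME-sEVs and 0.776 to 1.35 CPM with LME-sEVs. Cd4 and Foxp3 reached at most 3 and 1 counts in a library. The part of these other blood cells in the tetraspanin results was not tested.

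**Figure D4:**
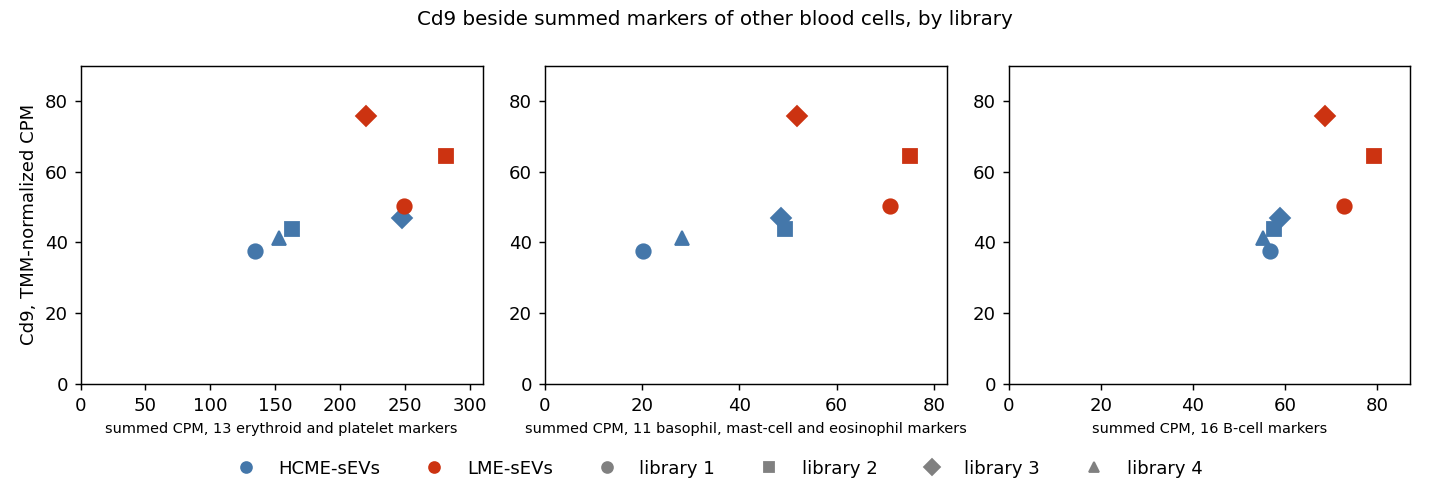
Cd9 (y axis, TMM-normalized CPM) against the summed CPM of markers of other blood cells (x axes) in HCME-sEV (blue) and LME-sEV (red) libraries, with shapes for library numbers. HCME-sEV library 3 reaches the marker sums of LME-sEV libraries for erythrocytes and platelets at a Cd9 level of 46.9 CPM. LME-sEV library 3, highest for Cd9, has the lowest sum of its group in each panel. Among the HCME-sEV libraries, Cd9 and the erythroid and platelet sum rise in the same order, library 1, 4, 2 and 3.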

How the data were processed

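The authors deposited counts per gene symbol, with no normalization or filter. By the submitters' processing notes and the methods, reads were trimmed with cutadapt 2.10, mapped to GRCm38 with STAR 2.5.3a, collapsed by molecular identifier with UMI-tools 1.0.0 and counted with featureCounts of Subread 2.0.0. The annotation release and strand setting are not given in the sources used here.

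Libraries were grouped by the labels. Counts were filtered (mean over libraries of 5 or more), normalized by TMM and tested with edgeR 4.0.16 (quasi-likelihood, R 4.3.3, Benjamini-Hochberg over all 12623 genes), which had been tested on simulated data. Called genes had an FDR under 0.05. Standard errors are the fold change over the square root of F. Exact two-sided permutation tests used log2 CPM with a prior count of 2. Alternatives were other filters and normalizations, DESeq2 1.42.0, limma-voom (limma 3.58.1), the replicate number as a block and leaving out each library. Near-identical 3′ ends (last 300 bases, 200 aligned at 95% identity) were searched with BLAST+ 2.17.0. Protein sequences were not used here, and 2 genes of the lists are not reported here by name.

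All members and all tested tetraspanins are named, and of the other lists the called genes, at most 6 per direction; of the marker lists, up to 4 abundant ones. Genes near the threshold, partners not called and markers at low counts were added after their values were seen. The members and lists were chosen with earlier results of these data known.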

Additional observations from a re-analysis of the deposited data

Results flagged for a closer look

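Tspan4 had 1 library apart from the rest of its group. Among the 4 HCME-sEV libraries, library 1 was the highest at 37.3 CPM, and the gap to the nearest other library, 29.1 CPM, was 0.835 of the range of the group, above Dixon's 95% critical value for 4 libraries. Of the 19 tetraspanins looked at in this way 1 was singled out, and chance does so in about 1 of 20 groups. Without this library the log2 fold change of Tspan4 was -0.32 in place of -0.44, and the call was lost (FDR = 0.142, quasi-likelihood test of edgeR, adjusted over all genes). The cause was not tested.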

How the results depend on the processing

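The calls of Cd9, Tspan13, Tspan32 and Cd82 held under all 9 alternatives that kept every library (filters, normalizations, DESeq2, limma-voom, the replicate block), and Cd63 was called under 1 of them, no minimum on counts. Over all genes, 1131 were called, 473 higher and 658 lower. Scaling by library size only gave 614 higher and 465 lower, and the upper quartile 522 and 543. With each library left out, calls ranged from 391 to 1305, and genes with a log2 fold change beyond 1 from 83 to 184, against 162 with all libraries and 97 by DESeq2. Calls among the members ranged from 2 to 4, among the other tetraspanins from 1 to 2, among the partners from 2 to 5, in the vesicle machinery from 0 to 2 and among the markers from 2 to 14. The other tetraspanins had 1 call in place of 2 by the upper quartile, library size only, DESeq2 and limma-voom. The machinery had 1 call in place of 2 with 5 counts in 3 libraries or DESeq2's size factors, and 4 with DESeq2. The markers, whose alternatives were chosen after seeing the data, had 4 calls in place of 12 with DESeq2. DESeq2 gave no FDR for 2204 genes, Prg2 among them. The cause was not tested. Signs turned near 0: Cd53 to -0.00881 without HCME-sEV library 4, Cd81 to 0.00974, 0.0256 and 0.132 without HCME-sEV library 3, LME-sEV library 1 and LME-sEV library 3, Cd151 to -0.125 without LME-sEV library 2, and Tspan31 to -0.0726 and -0.0935 without HCME-sEV library 1 and LME-sEV library 3. With 1 library left out, log2 fold changes reached as far as 0.176 for Cd53, -0.321 for Cd81, 0.342 for Cd151 and 0.218 for Tspan31.

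No source says whether the replicate numbers pair the libraries. Same-numbered libraries deviated from their group means together with correlations of 0.0721, 0.155 and 0.0267. Correlations this small cannot decide whether the libraries were paired. With the replicate block, calls over all genes were 1454, members called stayed at 4, the machinery had 4, and Cd53 turned to -0.00757. HCME-sEV libraries 1 and 2 each correlated best with the LME-sEV library of their own number. HCME-sEV library 3 correlated best with LME-sEV library 1 (0.0803). Depth limits Cd151, Upk1a and Tspan9, with at most 32 counts in a library.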
